A study of Mus musculus with 15 samples.

Results

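The genes of the cell cycle were described in sorted cortical interneurons of mouse embryos that lacked Lhx6 or were labelled as lacking Mtg8. The set held 48 genes chosen by name: 9 G1 cyclins, G1 cyclin-dependent kinases and E2F1, 14 genes of DNA replication, 22 genes of G2 and mitosis (G2/M) and 3 cyclin-dependent kinase (CDK) inhibitors. All 48 were found among the 26835 genes of the Lhx6 table and the 25714 genes of the Mtg8 table.

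The libraries were made from single mouse embryos at E14.5 (strain C57BL6/CBA, a mixed background). YFP+ cells were sorted from the cortex of embryos in which Nkx2-1-Cre, a transgene active in progenitors of the medial ganglionic eminence (MGE) and preoptic area, had switched on the R26R-YFP reporter, so every library in this study, controls included, carried Nkx2-1-Cre and R26R-YFP. In the first comparison 5 Lhx6-/- embryos were set against 4 Lhx6+/+ controls, and in the second 3 embryos labelled Mtg8-/- were set against 3 Mtg8+/+ controls. Both mutations are constitutive, so that cells outside the YFP+ lineage of those embryos lacked the gene too, and YFP marks cells by their ancestry and not by their state at the time of sorting. Libraries are named by the replicate numbers of the labels: Lhx6 controls 1 to 4, Lhx6 mutants 1, 2, 3, 5 and 6, Mtg8 controls 1, 2 and 4, and labelled Mtg8 mutants 2, 3 and 4.

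Cells pass through G1, copy their DNA in S phase, and divide after G2. D-type cyclins with Cdk4 or Cdk6 and E-type cyclins with Cdk2 release the E2F factors from the retinoblastoma protein, which switches on the genes of DNA replication, and a later wave of transcription supplies the kinases, cyclins and spindle proteins of mitosis. In the embryonic MGE, progenitors divide in the ventricular and subventricular zones, and the interneurons that leave for the cortex are postmitotic and express inhibitors such as Cdkn1b and Cdkn1c, so G2/M transcripts in a sort of cortical YFP+ cells are a marker of dividing cells. In bulk RNA a change in the number of dividing cells and a change in the RNA each of them holds cannot be told apart.

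Depth ranged from 12218422 to 22053032 counted reads a library, and every one of the 48 genes had reads in all 15 libraries, the fewest being 10 reads of E2f1 in labelled Mtg8 mutant 2. Lhx6, the targeted gene, had normalized counts of 5812 to 8441 in the Lhx6 controls and 236 to 495 in the Lhx6 mutants (log2 difference -4.48 ± 0.20, SE, adjusted p = 1.34e-07, limma with Benjamini-Hochberg adjustment). Runx1t1, which encodes MTG8, was not lower in the libraries labelled Mtg8 mutant, with 12249.8 to 13934 against 7938 to 10264.5 in their controls (log2 difference 0.54 ± 0.17, SE, adjusted p = 0.859), so these are called labelled mutants throughout. Sst, an interneuron subtype marker, had mean normalized counts of 6615 in these libraries and 16695 in their controls (log2 difference -1.34 ± 0.19, SE, adjusted p = 0.0713). Counts over whole genes do not show whether a mutant transcript is cut short. The library names in the table headers fell into 2 styles, with a date-like number in Lhx6 mutants 1, 2, 3 and 5, Mtg8 controls 1 and 2 and labelled Mtg8 mutant 2, and without one in the other libraries. In the Lhx6 comparison the style therefore cannot be told apart from genotype except through mutant 6. Summed normalized counts of 10 interneuron markers were 25370 to 46682 in the Lhx6 table and 27220 to 45789 in the Mtg8 table. Those of 12 genes of the cortical excitatory lineage, which the Nkx2-1-Cre sort should lack, were 21322 to 37933 and 12053 to 27811. In the Lhx6 table they were 21322 to 27037 in the controls and 27362 to 37933 in the mutants, without overlap, although 8 of the 12 genes were below 0 (median -0.18) and 1 was called, Bcl11b, which other forebrain neurons also express and which rose from a mean of 6042 to 16645 (log2 difference 1.43 ± 0.21, SE, adjusted p = 0.00353).

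The mitotic genes of this set share sequence features that the choice by name did not use. Mitotic promoters are known to carry CCAAT boxes, bound by NF-Y, and a cell cycle homology element (TTTGAA or close variants of it), bound by the DREAM complex, whereas S phase promoters often carry E2F sites. RefSeq promoter windows on GRCm38.p6, from 250 bases before to 50 bases after a transcription start, were at hand for 39 of the 48 genes. Among 19 G2/M genes with a window, 17 (89.5%) held CCAAT on either strand and 14 (73.7%) held TTTGAA on either strand, and all 14 of these held both. Of 12 replication genes with a window, 9 (75%) held CCAAT and 2 (16.7%) held TTTGAA, so CCAAT was not particular to the G2/M genes. Counted in the same way by gene, over 10306 genes tested in a table that had a window, 43.3% held CCAAT, 14.3% held TTTGAA and 5.97% held both (of all 32851 single windows, 37.4%, 17.9% and 6.95%). An E2F core, searched on both strands as TTCCCGC, with TTCGCGC, with TTGCCGC and with TTGGCGC as its variants, stood in 8 of 12 replication genes (66.7%), in 4 of 19 G2/M genes (21.1%) and in 19.5% of the 10306 genes (9.57% of single windows), so that the G2/M share was near that of all genes. TTTGAA lay within 50 bases of the start in 13 of the 19 G2/M genes (68.4%), against 3.84% of the 10306 genes and 4.94% of single windows, and Mki67, with its nearest match 98 bases before the start, was the only one of the 14 genes outside that span. No match of a motif to a window shows binding, and a match may overlap another, as CCAAT and its reverse complement ATTGG do once in Ube2c.

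The windows printed here belong to genes with the smallest unadjusted p of their group in the Mtg8 comparison, 4 from G2/M and 1 each from G1 (Cdk2) and DNA replication (Cdc6), and are printed 5′ to 3′ on the strand of the gene with the motif matches in capitals. Cdc20 lies at chr4:118437294-118437593 (minus strand), Kif11 at chr19:37376132-37376431 (plus), Ube2c at chr2:164769679-164769978 (plus), Ccnb2 at chr9:70421505-70421804 (minus), Cdk2 at chr10:128705002-128705301 (minus) and Cdc6 at chr11:98907901-98908200 (plus). The 4 mitotic windows each hold CCAAT or its reverse complement ATTGG, and TTTGAA or its reverse complement TTCAAA close to the start, whose nearest match begins 18, 19 and 29 bases before it in Cdc20, Kif11 and Ube2c and 4 bases after it in Ccnb2. Cdk2 and Cdc6 hold E2F cores in place of TTTGAA, 3 in Cdk2 and 1 in Cdc6.
Cdc20: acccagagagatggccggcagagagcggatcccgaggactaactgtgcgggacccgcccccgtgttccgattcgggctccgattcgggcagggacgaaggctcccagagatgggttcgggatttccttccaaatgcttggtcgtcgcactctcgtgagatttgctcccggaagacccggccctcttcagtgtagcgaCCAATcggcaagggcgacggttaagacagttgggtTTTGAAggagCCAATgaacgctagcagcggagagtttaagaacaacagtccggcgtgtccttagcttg
Kif11: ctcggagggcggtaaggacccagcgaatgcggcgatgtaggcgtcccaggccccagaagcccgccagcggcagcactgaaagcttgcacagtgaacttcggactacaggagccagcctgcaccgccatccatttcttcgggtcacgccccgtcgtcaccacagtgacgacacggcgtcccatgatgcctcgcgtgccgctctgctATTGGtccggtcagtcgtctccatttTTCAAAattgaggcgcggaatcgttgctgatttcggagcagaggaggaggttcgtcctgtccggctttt
Ube2c: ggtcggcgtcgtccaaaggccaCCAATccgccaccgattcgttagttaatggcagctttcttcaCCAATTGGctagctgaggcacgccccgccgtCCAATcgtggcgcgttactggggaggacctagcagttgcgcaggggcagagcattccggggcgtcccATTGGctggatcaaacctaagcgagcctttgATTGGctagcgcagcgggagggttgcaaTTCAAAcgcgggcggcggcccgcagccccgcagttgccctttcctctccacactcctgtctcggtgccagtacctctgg
Ccnb2: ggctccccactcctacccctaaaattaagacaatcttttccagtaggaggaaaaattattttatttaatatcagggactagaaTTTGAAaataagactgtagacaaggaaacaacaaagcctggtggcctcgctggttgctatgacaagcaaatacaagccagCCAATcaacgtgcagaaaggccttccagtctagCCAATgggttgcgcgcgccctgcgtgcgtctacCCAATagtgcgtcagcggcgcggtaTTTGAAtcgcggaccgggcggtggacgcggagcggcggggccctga
Cdk2: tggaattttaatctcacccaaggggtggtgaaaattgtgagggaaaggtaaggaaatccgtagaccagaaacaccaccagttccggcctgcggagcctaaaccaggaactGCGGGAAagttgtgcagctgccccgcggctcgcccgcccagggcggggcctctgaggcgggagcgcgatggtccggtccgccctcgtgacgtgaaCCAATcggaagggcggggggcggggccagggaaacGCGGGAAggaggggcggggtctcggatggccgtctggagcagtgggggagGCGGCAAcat
Cdc6: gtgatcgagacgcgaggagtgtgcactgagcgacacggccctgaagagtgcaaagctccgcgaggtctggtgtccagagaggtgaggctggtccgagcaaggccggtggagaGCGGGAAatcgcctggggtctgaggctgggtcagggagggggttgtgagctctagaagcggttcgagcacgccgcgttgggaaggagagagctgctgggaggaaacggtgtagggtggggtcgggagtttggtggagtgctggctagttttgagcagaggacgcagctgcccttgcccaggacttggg

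To ask whether loss of Lhx6 altered the content of dividing cells, the 48 genes were compared between the 5 Lhx6 mutants and the 4 controls. No cell cycle gene passed the test in either direction. Across the whole table, 0.682% of 16727 genes tested were called lower and 1.03% higher (limma, adjusted p under 0.05), and the lowest adjusted p among the 48 was 0.361. On the recovered reads edgeR called 0.664% of the genes lower and 1.01% higher, and DESeq2 called 1.51% and 3.02%, with none of the 48 among them. At an unadjusted p under 0.05 there was 1 gene lower, Ccne1, and 1 higher, Cdk6, where 5.63% and 7.11% of all genes tested were that far apart. At the same limit edgeR put 0 of the 48 lower and 2 higher (4.68% and 8.06% of all genes), and DESeq2 put 0 lower and 4 higher (3.81% and 6.67%). In none of the 48 did the mutants all lie on one side of the controls, against 3.03% of all genes with every mutant lower and 3.19% with every mutant higher. The log2 differences divided evenly, with 24 above 0 and 24 below, where 46.6% of all genes tested were above 0. The split depends on the scale. By the ratio of mean counts, in which a high library weighs more, 32 of the 48 were above 1 and 16 were not, where 51.9% of all genes tested were above 1.

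The mutant group was more widely spread than the controls. The SD of the mutants exceeded that of the controls in 48 of 48 genes, where 83.5% of all genes tested did so. The 48 genes move together and are not independent observations. All controls had undated names and the mutants had both styles, so the wider spread cannot be told apart from this mix. Summed over the 22 G2/M genes, normalized counts were 13687, 14777, 12882 and 17948 in Lhx6 controls 1 to 4, and 11212, 18462, 11401, 12904 and 30235 in mutants 1, 2, 3, 5 and 6. Mutant 6 stood above every other library, mutant 2 lay just above the highest control, mutant 5 lay at the lower end of the control range, and mutants 1 and 3 stood below it. Mutant 6 was the highest of the 9 libraries for 22 of 22 G2/M genes, 12 of 14 replication genes and 38 of all 48, and it was highest for 10.2% of all genes tested. At the other end, mutant 1 was lowest for 26 of the 48, which it was for 27.8% of all genes tested. Mutant 1 was also the highest library for 26.4% of all genes tested, and for 2 of the 48. Relative to the mean of the controls, the mean log2 level of the G2/M genes was -0.66, 0.28, -0.40, -0.29 and 1.05 in mutants 1, 2, 3, 5 and 6. The controls were at -0.18 to 0.27 on this scale, so mutant 5 lay below all of them.

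**Figure D1:**
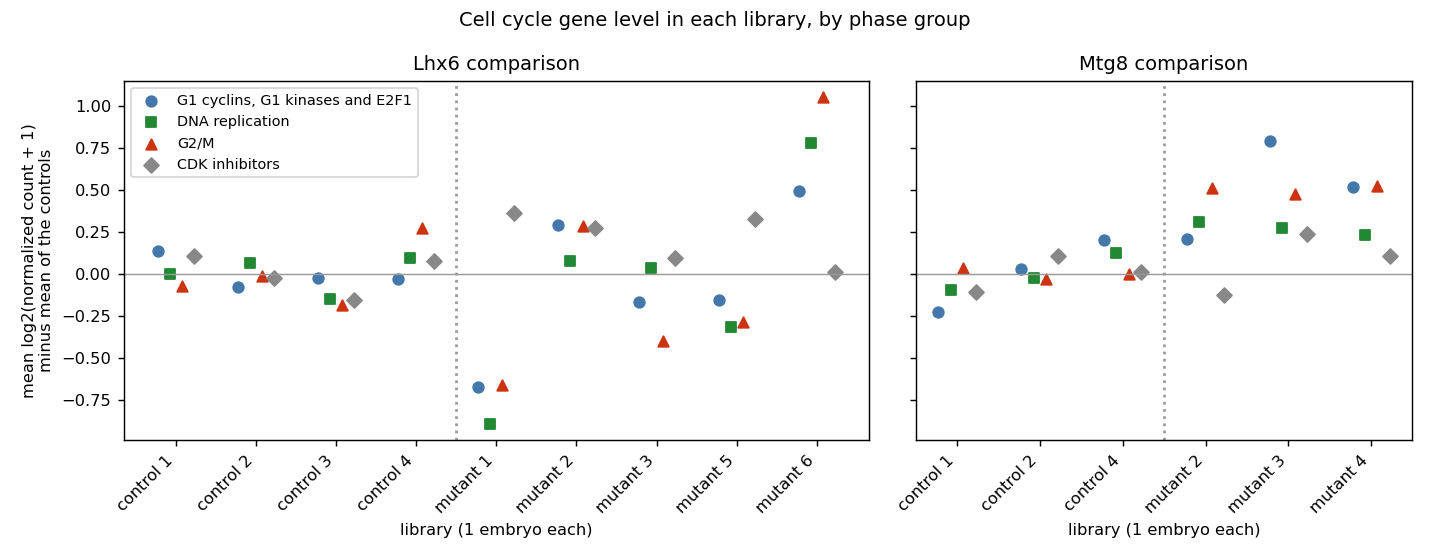
Mean level of each phase group in each of the 15 libraries, as the mean over its genes of log2(normalized count + 1) minus the mean of the controls of the same table (y axis); each symbol is 1 group in 1 library, and the dotted line separates controls from mutants. In the Lhx6 comparison the G2/M symbols spread from -0.66 in mutant 1 to 1.05 in mutant 6, while in the Mtg8 comparison all 3 labelled mutants lie between 0.47 and 0.53 for G2/M, above all 3 controls.

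Because mutant 6 alone of the mutants shared the library name style of the controls, its values were also set apart. Against the 4 controls, its 22 G2/M genes had a median log2 difference of 1.09 (0.76 to 1.26). Its 14 replication genes had one of 0.76 and its 9 G1 genes one of 0.70, while the median of all genes tested was 0.01. These values rest on mutant 6 alone, already seen to be the highest library for all 22 G2/M genes, so their common sign adds nothing. Against the 2 controls that shared the stem of its library name, the G2/M median was 1.08. The 4 mutants with dated names gave a G2/M median of -0.21 against all 4 controls, with 18 of 22 genes below 0, a replication median of -0.37 and a G1 median of -0.12. The medians over all 5 mutants, 0.03 for G2/M, -0.16 for replication and 0.07 for G1, thus joined libraries on both sides of the controls, beside a median of -0.04 over all genes tested. Progenitor marker RNA moved with these values in part. The summed count of 15 subpallial progenitor markers, none of them at a mean under the filter, was 11528 to 13878 in the controls and 16549, 15219, 10633, 13637 and 18101 in mutants 1, 2, 3, 5 and 6, so that by this sum mutant 6 was highest and mutant 1 came next. By the mean log2 level of the same 15 genes relative to the controls, in which each gene weighs alike, the mutants stood at -0.25, 0.75, 0.08, 0.21 and 0.87, with mutants 6 and 2 again highest, as for the G2/M genes, and mutant 1 lowest of the mutants. Interneuron marker sums were 25370 to 34867 in the controls and 42816, 33685, 46682, 35334 and 27233.5 in mutants 1, 2, 3, 5 and 6. Mutant 6 thus lay within the control range and mutants 1, 3 and 5 above it. Of the 10 interneuron markers 8 were above 0 (log2 differences -1.57 to 1.66), with 2 called higher and 1 lower. Of 9 postmitotic neuron markers 1 was called higher. Over all genes tested 46.6% were above 0, 1.03% were called higher and 0.682% lower. Because both lists held called genes, their sums need not follow the number of such cells. Sums of 9 postmitotic neuron markers were 70557 to 73791 in the controls and 89177, 77108, 88563, 81735 and 68711 in mutants 1, 2, 3, 5 and 6, so that mutant 6 lay below every control and mutants 1 and 3 were highest, the reverse of their order for the G2/M genes. The 2 oligodendrocyte precursor markers past the filter had mean log2 levels of 1.13, 0.80, 3.08, 0.21 and 1.88 in mutants 1, 2, 3, 5 and 6. Their controls ran from -1.54 to 1.26. For the 5 microglia markers past the filter the mutants stood at -0.57, 1.18, 2.40, -2.67 and 1.06 and the controls at -1.11 to 0.82. Both lists rested on low counts, with sums of 29.8 to 295 and 21.3 to 418. The part of these cells in the spread was not tested.

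D-type cyclins drive entry into the cycle from G1. Ccnd1 had normalized counts of 429.7, 332, 222 and 292 in the controls and 245, 1009.8, 295, 239 and 503 in mutants 1, 2, 3, 5 and 6. Mutant 2 stood far above the rest, mutant 6 was also above the controls, and the other 3 mutants lay among them (log2 difference 0.32 ± 0.38, SE, adjusted p = 0.735). Without mutant 2 the log2 difference was -0.02. Ccnd2, the D-type cyclin with the highest level per kb, was 5460.4, 6023, 7183 and 6139 in the controls and 6363, 6928, 5079.8, 6006 and 13126 in the mutants. Here mutant 6 lay above all others and mutant 3 below, with a log2 difference of 0.20 ± 0.22 and an adjusted p of 0.725. Ccnd3, the D-type cyclin with the lowest level per kb, ran from 60.6 to 272 over the 9 libraries (log2 difference -0.43 ± 0.38, SE, adjusted p = 0.644).

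Cdk4, the kinase partner of these cyclins, had the highest level per kb of all 48 genes, 2789 normalized counts per kb in the controls. Its counts of 9167, 9374, 8365 and 9344 in the controls and 6110.4, 8571, 8009, 8586 and 9653 in the mutants overlapped, mutant 1 being lowest (log2 difference -0.16 ± 0.13, SE, adjusted p = 0.625). Its relative Cdk6 was 546, 417, 504 and 520.0 in the controls and 730.1, 1154, 391, 842 and 844 in the mutants, so 4 mutants lay above the controls and mutant 3 below them (log2 difference 0.60 ± 0.26, SE, adjusted p = 0.361). Leaving out mutant 3 brought Cdk6 past the threshold, at a log2 difference of 0.83 and an adjusted p of 0.0309, which makes it the one gene of the 48 whose call turned on a single library. Ccne1, the E-type cyclin that activates Cdk2 at the end of G1, was 133, 123, 118 and 84.7 in the controls and 32.2, 84.2, 69.9, 49.4 and 123 in the mutants. Mutants 1, 2, 3 and 5 lay below the lowest control, mutant 2 by the smallest margin, whereas mutant 6 was among the controls (log2 difference -0.79 ± 0.36, SE, adjusted p = 0.389). E2f1, the transcription factor at the head of the replication program, had the lowest level per kb of the 48 in the controls, with 91.3, 47.0, 81.1 and 78.7 in the controls and 60.6, 87.9, 66.1, 55.2 and 130.01 in the mutants (log2 difference 0.07 ± 0.32, SE, adjusted p = 0.935). Mutant 6 alone lay above the controls. Ccne2 and Cdk2 gave log2 differences of 0.15 ± 0.24 and -0.34 ± 0.29 with adjusted p of 0.811 and 0.639.

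DNA replication begins with the loading of a helicase on origins in G1. Cdc6, one of the loading factors, was 177, 70.0, 123 and 165 in the controls and 23.5, 187, 90.3, 78.5 and 186 in the mutants. Mutant 1 had the lowest and mutants 2 and 6 the highest counts (log2 difference -0.48 ± 0.53, SE, adjusted p = 0.715). Cdt1, its partner in this step, was 75.0, 124, 75.5 and 99.2 and 37.1, 105, 111, 53.3 and 172 in the same order of libraries, again with mutant 1 at the bottom and mutant 6 at the top (log2 difference -0.13 ± 0.41, SE, adjusted p = 0.903). Cdc45, which travels with the active helicase, went from 22.3 in mutant 1 to 379 in mutant 6, around control values of 94.2, 176, 111 and 112 (log2 difference -0.23 ± 0.60, SE, adjusted p = 0.885). Mcm2, a helicase subunit, was 491, 429, 388 and 439.6 in the controls and 302, 334, 419, 202 and 819.7 in the mutants. Only mutant 6 exceeded the controls (log2 difference -0.23 ± 0.32, SE, adjusted p = 0.769). The other helicase subunits, Mcm3 to Mcm7, had log2 differences from -0.42 for Mcm3 to 0.33 for Mcm5, and mutant 1 was the lowest library for each of them. Pcna, the sliding clamp of the replication fork, was 1907, 2131, 2083 and 2348 in the controls and 2557, 2589, 1818, 2322 and 2972 in the mutants with mutant 3 lowest and mutants 1, 2 and 6 above the controls (log2 difference 0.20 ± 0.15, SE, adjusted p = 0.598). Of the enzymes that make deoxynucleotides, Rrm2 was 1557, 1933, 1292 and 1577 in the controls and 1271, 2501, 1579, 1550.0 and 3893 in the mutants, with mutants 2 and 6 above every control (log2 difference 0.33 ± 0.28, SE, adjusted p = 0.636), while Rrm1 and Tyms had log2 differences of -0.35 ± 0.28 and 0.25 ± 0.16.

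Among the mitotic genes, Mki67, the nuclear antigen used to stain cycling cells, had 525, 582, 575 and 741 in the controls and 548, 912, 479, 534 and 1140.3 in the mutants. Mutants 2 and 6 were above and mutant 3 below the controls (log2 difference 0.18 ± 0.25, SE, adjusted p = 0.774). Top2a, which untangles sister chromatids, was 1352, 1423, 1308 and 1649.7 in the controls and 1075, 1918, 1099, 1245 and 3126 in the mutants (log2 difference 0.11 ± 0.28, SE, adjusted p = 0.877). Mutants 1, 3 and 5 lay under and mutants 2 and 6 over all controls. Cdk1, the mitotic kinase, was 437, 498, 502 and 667 and 369, 692, 388, 581 and 1101, and Ccnb1, its cyclin, 946, 989, 958 and 1261 and 486, 1092, 969.6, 978 and 2294. For both, mutant 6 was highest and mutant 1 lowest, and the log2 differences were 0.15 ± 0.29 for Cdk1 (adjusted p = 0.846) and -0.0023 ± 0.33 for Ccnb1 (adjusted p = 0.998).

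Spindle and kinetochore proteins carry out the division itself. Bub1, a spindle checkpoint kinase, was 209.6, 217, 160.3 and 317 in the controls and 115, 311, 77.3, 145 and 521 in the mutants (log2 difference -0.25 ± 0.47, SE, adjusted p = 0.837). Mutant 3 was lowest. Kif11, the motor that separates the spindle poles, was 484, 494, 389 and 481 in the controls and 80.4, 438, 418, 214 and 784 in the mutants, a range of 80.4 to 784 that enclosed the controls (log2 difference -0.61 ± 0.49, SE, adjusted p = 0.623). It was the G2/M gene with the largest log2 difference, which was -0.13 without mutant 1. Tpx2, a spindle assembly factor, had 617, 561, 488 and 723 and 370.0, 551, 404, 349.7 and 1410.3, with mutant 6 above the controls, mutant 2 among them and mutants 1, 3 and 5 below (log2 difference -0.17 ± 0.35, SE, adjusted p = 0.859). Cenpf, a kinetochore protein, was 576, 682, 624 and 793 in the controls and 624.90, 812, 656, 728 and 1553 in the mutants, mutant 6 lying far above and mutant 2 slightly above the controls (log2 difference 0.31 ± 0.24, SE, adjusted p = 0.613). Hmgb2, a chromatin protein with the highest G2/M level per kb, was 2701, 3314, 2525 and 3981 and 3102, 4203, 2050.0, 2921 and 5984, with mutants 2 and 6 at the top (log2 difference 0.15 ± 0.26, SE, adjusted p = 0.822). Over the 22 genes the log2 differences ran from -0.61 to 0.35, 12 above and 10 below 0. By the ratio of mean counts 18 of the 22 were above 1, the other 4 being Cdc20, Aurka, Plk1 and Kif11.

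**Figure D2:**
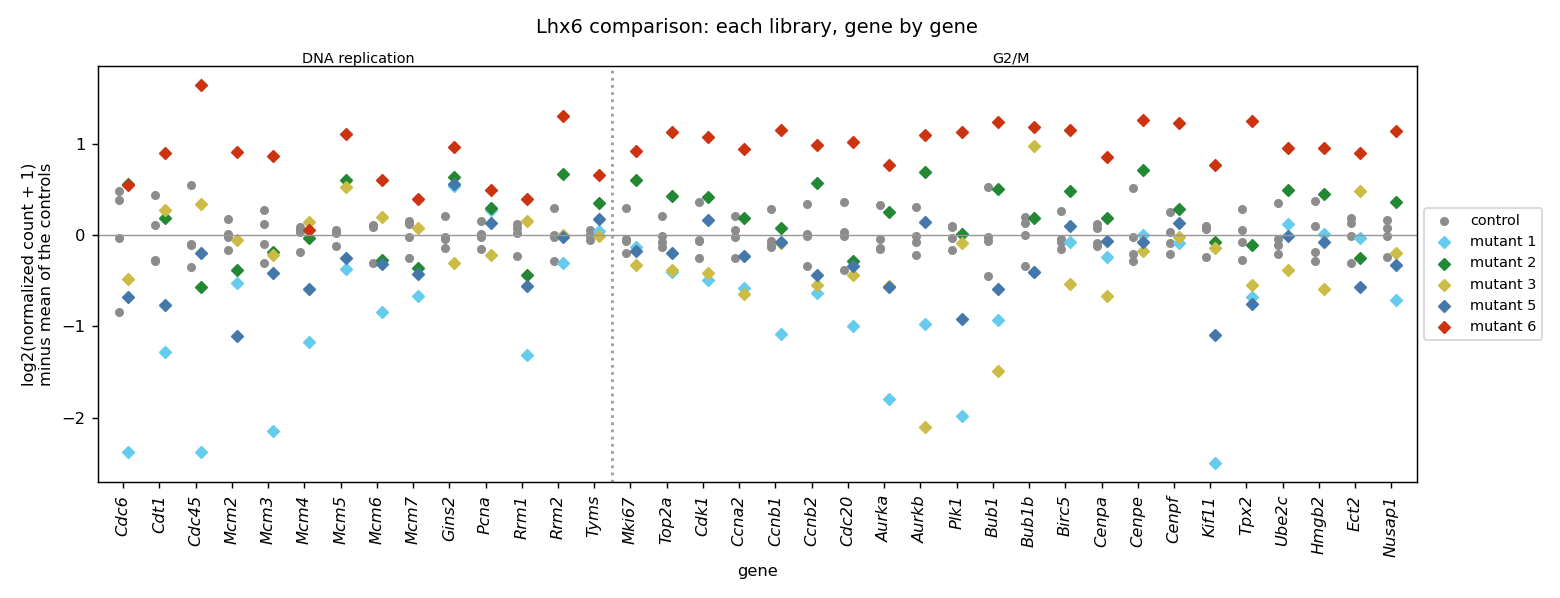
Each point is 1 library of the Lhx6 comparison for 1 replication or G2/M gene, as log2(normalized count + 1) minus the mean of the 4 controls (y axis, log2 units); grey circles are controls and coloured diamonds the 5 mutants. Mutant 6 is the uppermost point for all 22 G2/M genes and mutant 1 is the lowermost for 10 of 14 replication genes.

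CDK inhibitors hold cells out of the cycle. Cdkn1a had normalized counts of 188, 171, 134 and 172 in the controls and 279.7, 165, 246, 258 and 203 in the mutants. All mutants but mutant 2 exceeded the controls (log2 difference 0.45 ± 0.21, SE, adjusted p = 0.402). Cdkn1b was 874, 984, 931 and 1125 in the controls and 2303, 1403, 813, 1426 and 1107 in the mutants, with mutant 1 the highest library and mutant 3 the lowest (log2 difference 0.45 ± 0.24, SE, adjusted p = 0.470). Cdkn1c, an imprinted inhibitor, was 3356, 2506, 2599 and 2710.1 in the controls and 1477, 3379, 2722, 2384 and 2017 in the mutants (log2 difference -0.27 ± 0.21, SE, adjusted p = 0.609). Its counts overlapped between the groups, and mutant 1, which held the most Cdkn1a and Cdkn1b, held the least Cdkn1c. None of the 3 passed the test.

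Further genes of the pathway were counted in the same fit. Of 30 further S phase genes 0 were called, with a median log2 difference of 0.04, and of 17 further E2F, pocket protein and INK4 genes 0 were called, with a median of -0.04. Among 36 further G2/M genes (median -0.0025) 1 was called, Gas2l3, a cytoskeletal linker of the growth arrest-specific family, which rose from a mean of 176 in the controls to 693 in the mutants (log2 difference 2.004 ± 0.22, SE, adjusted p = 3.08e-04). In mutant 6, 30 of the 30 S phase genes and 31 of the 36 G2/M genes lay above the mean of the controls, where 51.2% of all genes did so.

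The second comparison asked the same question of the libraries labelled Mtg8 mutant. Here the mitotic genes lay higher in the labelled mutants as a group, by a similar amount in all 3 libraries, although no single gene passed the test. All 22 G2/M genes had a log2 difference above 0, from 0.15 to 0.87 with a median of 0.49, while 48.5% of all genes tested were above 0 and their median was -0.01. Of all 48 genes 44 were above 0. Summed G2/M counts were 11768, 11014 and 11035 in Mtg8 controls 1, 2 and 4, and 16162, 14896 and 14795 in labelled mutants 2, 3 and 4. The groups did not overlap.

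None of the 48 had an adjusted p under 0.05, nor did any of the 16132 genes tested in this table (0% lower and 0% higher, limma). The smallest adjusted p of the 48 was 0.769, for Cdc20. On the recovered reads edgeR called 0 genes lower and 1 higher (0% and 0.0062%), and DESeq2 called 10 lower and 21 higher (0.0616% and 0.129%), none of them one of the 48. At an unadjusted p under 0.05, 16 of the 48 were higher and 0 lower, where 3.06% of all genes tested were higher and 2.44% lower. By edgeR 17 were higher and 0 lower (4.37% and 1.97% of all genes), and by DESeq2 18 and 0 (2.89% and 1.56%). The 16 comprised 4 of 9 G1 genes, 2 of 14 replication genes, 10 of 22 G2/M genes and 0 of 3 inhibitors. The G2/M count was 5 without control 1 and 5 without control 2. All labelled mutants lay above all controls in 19 of the 48 and below them in 0, where 4.68% and 5.52% of all genes tested were so placed. Those 19 were Ccnd1, Ccnd2, Ccne1 and Cdk2 of G1, Cdc6, Cdc45, Mcm2, Mcm5 and Gins2 of replication, and Cdk1, Ccnb1, Ccnb2, Cdc20, Plk1, Bub1, Birc5, Kif11, Tpx2 and Ube2c of mitosis. Genes of one phase are transcribed together, so the 48 are not independent of one another.

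**Figure D3:**
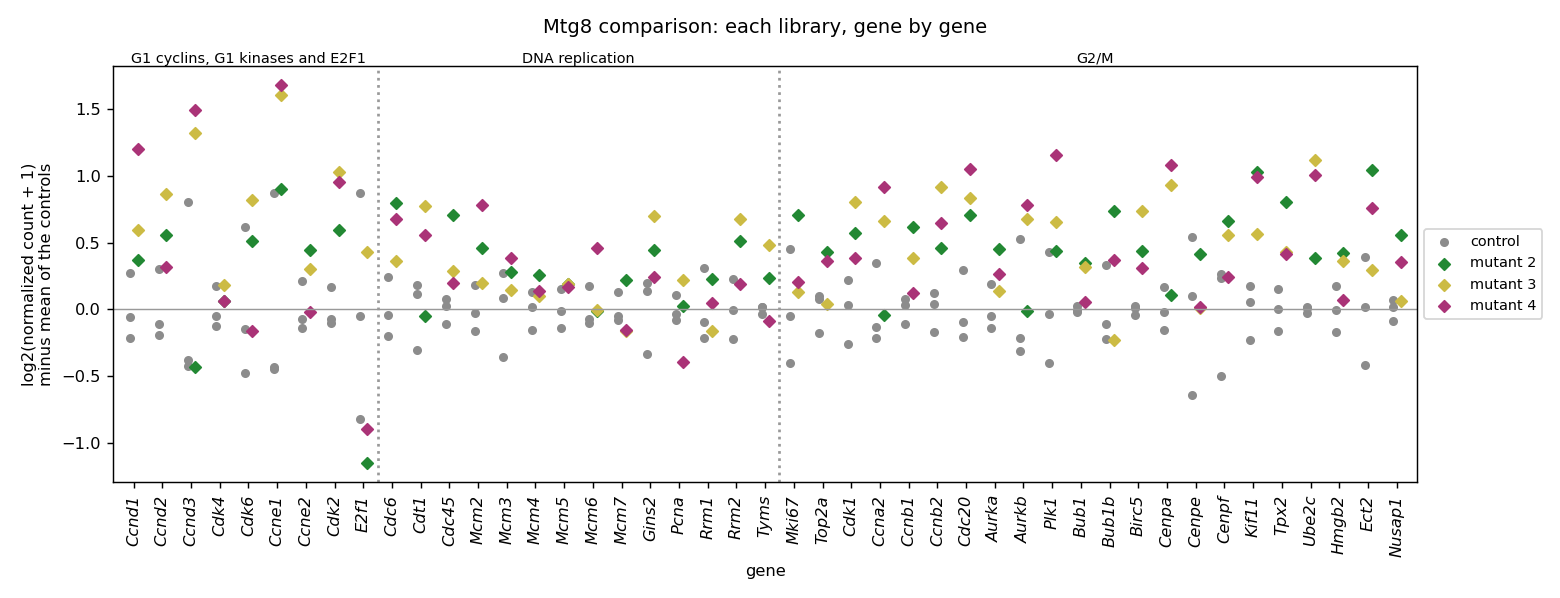
Each point is 1 library of the Mtg8 comparison for 1 G1, replication or G2/M gene, as log2(normalized count + 1) minus the mean of the 3 controls (y axis, log2 units); grey circles are controls and coloured diamonds the 3 libraries labelled mutant. The diamonds lie mostly above the circles on the right, where all 22 G2/M differences are above 0, straddle them for Mcm7 and Pcna, and lie below or among them for E2f1.

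The name styles divide both groups of this table, so the comparison could be made within each. Among the libraries with dated names (controls 1 and 2, labelled mutant 2) the G2/M median was 0.48 with 21 of 22 genes above 0, and among those without (control 4, labelled mutants 3 and 4) it was 0.49 with 21 of 22. The replication medians within the styles were 0.35 and 0.12, and the G1 medians 0.46 and 0.63. Each of these rests on 3 libraries and carries no test.

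Of the G1 genes, Ccnd1 was 205, 227 and 286 in controls 1, 2 and 4 and 307, 358 and 546 in labelled mutants 2, 3 and 4, without overlap (log2 difference 0.72 ± 0.27, SE, adjusted p = 0.859). Ccnd2 was 4101, 3096 and 2912 and 4911, 6058 and 4148, where labelled mutant 4 lay just above control 1 (log2 difference 0.58 ± 0.20, SE, adjusted p = 0.859). Ccne1 was 19.0, 19.2 and 48.9 in the controls and 49.8, 81.8 and 86.4 in the labelled mutants, the largest log2 difference of the 48 (log2 difference 1.40 ± 0.44, SE, adjusted p = 0.859). Control 4 had nearly the count of labelled mutant 2. Cdk2, the partner of cyclin E, was 199, 203 and 239.7 in the controls and 322, 436 and 413 in the labelled mutants, well separated (log2 difference 0.86 ± 0.24, SE, adjusted p = 0.776). Cdk4 was 8516, 8949 and 10440.2 and 9697, 10499 and 9682, with the groups overlapping (log2 difference 0.10 ± 0.16, SE, adjusted p = 0.943). Ccnd3 split the labelled mutants, since 64.6, 221 and 248 stood beside 67.1, 65.1 and 154 in the controls (log2 difference 0.79 ± 0.49, SE, adjusted p = 0.866). Without labelled mutant 2 the log2 difference of Ccnd3 was 1.41, and without labelled mutant 4 it was 0.44. E2f1 was the only G1 gene below 0, at 14.5, 49.1 and 25.4 in the controls and 11.3, 35.8 and 13.8 in the labelled mutants, on 10 to 46 reads a library (log2 difference -0.54 ± 0.57, SE, adjusted p = 0.906).

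The replication genes had a median log2 difference of 0.24, with 12 of 14 above 0. Cdc6 was 126, 113 and 154 in the controls and 227, 167 and 209 in the labelled mutants without overlap (log2 difference 0.61 ± 0.26, SE, adjusted p = 0.859). Cdt1, 55.9, 78.9 and 75.3 and 66.8, 119 and 102, overlapped through labelled mutant 2 (log2 difference 0.43 ± 0.33, SE, adjusted p = 0.879). For Mcm2 the counts were 494, 543 and 628 in the controls and 760.1, 632 and 949 in the labelled mutants, which were separate by a narrow margin (log2 difference 0.48 ± 0.22, SE, adjusted p = 0.859). Mcm7 and Pcna, the replication genes with the highest level per kb in the controls, were the 2 genes below 0. Mcm7 was 3129, 2760.0 and 2702 in the controls and 3333, 2551 and 2571 in the labelled mutants (log2 difference -0.03 ± 0.18, SE, adjusted p = 0.984), and Pcna was 2268, 2507 and 2203 and 2369, 2702 and 1765 (log2 difference -0.05 ± 0.20, SE, adjusted p = 0.978). In both, the labelled mutants reached above and below the controls. Rrm2 was the other replication gene at an unadjusted p under 0.05 (log2 difference 0.46 ± 0.20, SE, adjusted p = 0.859).

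Cdc20, Kif11, Ube2c and Ccnb2 had the smallest p of the mitotic genes. Cdc20, the activator of the anaphase-promoting complex, was 362, 277 and 256 in the controls and 484, 528 and 612 in the labelled mutants, 1.81 times the control mean (log2 difference 0.87 ± 0.23, SE, adjusted p = 0.769). Every labelled mutant was above every control. Kif11 was 247, 302 and 327 and 592, 429 and 579, a ratio of means of 1.83, also without overlap (log2 difference 0.86 ± 0.23, SE, adjusted p = 0.771). Ube2c, the ubiquitin-conjugating enzyme of the same complex, was 342, 334 and 343 in the controls, which lay close together, and 443, 739 and 682.65 in the labelled mutants (log2 difference 0.84 ± 0.24, SE, adjusted p = 0.859). Ccnb2, a B-type cyclin, was 269, 285 and 233 and 360.2, 494 and 409 (log2 difference 0.67 ± 0.23, SE, adjusted p = 0.859). Their promoter windows, printed above, hold both CCAAT and TTTGAA on one strand or the other. So did 14 of the 19 G2/M genes with a window (73.7%), Mki67, Top2a and Hmgb2 included. The pair of motifs was thus not particular to the genes with the smallest p.

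Cdk1 was 392, 319.9 and 447 in the controls and 571, 670.0 and 499.9 in the labelled mutants (log2 difference 0.59 ± 0.23, SE, adjusted p = 0.859), and Ccnb1 was 1117, 980.1 and 1086 and 1621, 1386 and 1153 (log2 difference 0.37 ± 0.20, SE, adjusted p = 0.859). Both were separate between the groups, Ccnb1 by the margin between control 1 and labelled mutant 4. Plk1, a kinase of mitotic entry, was 190.0, 147 and 262 in the controls and 264, 307 and 434 in the labelled mutants, control 4 nearly reaching labelled mutant 2 (log2 difference 0.75 ± 0.29, SE, adjusted p = 0.859). Ccna2, the cyclin of S phase and G2, was 260.4, 176 and 187 and 198, 324 and 388, where labelled mutant 2 lay among the controls (log2 difference 0.51 ± 0.29, SE, adjusted p = 0.866). The classic proliferation markers were less far apart. Mki67 was 381, 539 and 297 in the controls and 642, 431 and 454 in the labelled mutants, with control 2 above labelled mutants 3 and 4 (log2 difference 0.35 ± 0.27, SE, adjusted p = 0.880). Top2a was 1386, 1143 and 1363 and 1740.0, 1328 and 1659.6, with labelled mutant 3 below controls 1 and 4 (log2 difference 0.28 ± 0.20, SE, adjusted p = 0.875). Hmgb2, 2787, 2462 and 2205 and 3310.1, 3182 and 2594, overlapped between control 1 and labelled mutant 4 (log2 difference 0.28 ± 0.19, SE, adjusted p = 0.867). The smallest difference of the group was that of Cenpe, a kinetochore motor, at 0.15 ± 0.30 (adjusted p = 0.953).

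**Figure D4:**
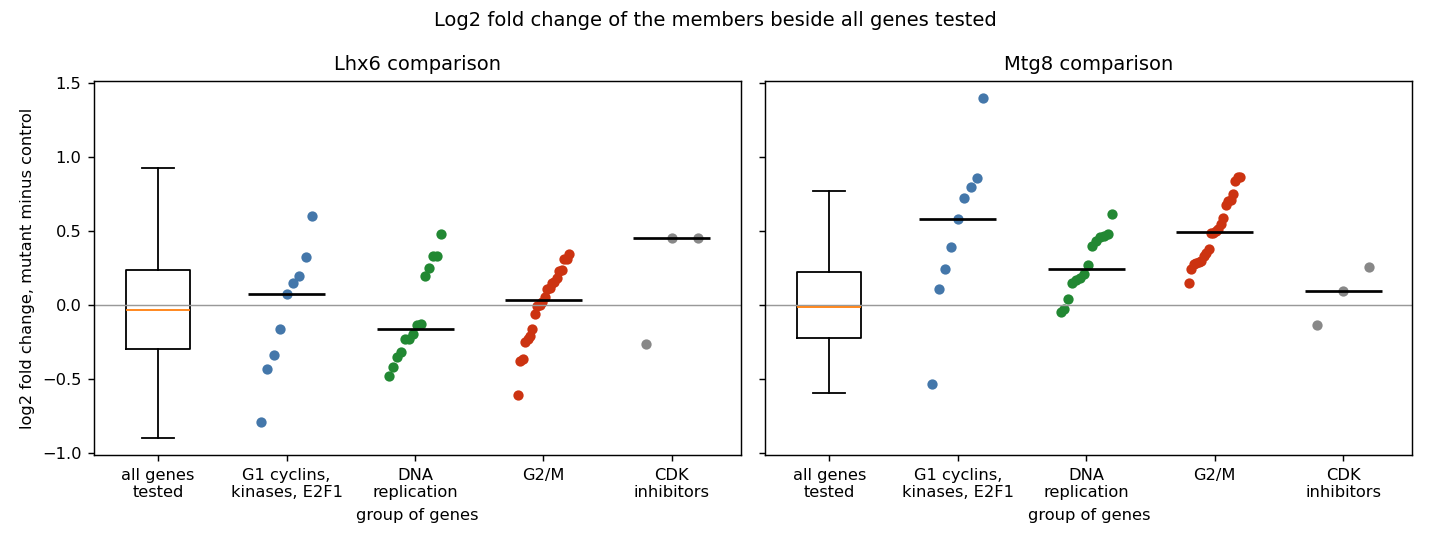
Log2 difference between mutants and controls (y axis) for each gene of the 4 phase groups, with 1 point per gene and a black line at the group's median, beside a box of all genes tested (median line, quartiles, whiskers at the 5th and 95th percentiles). The G2/M points scatter on both sides of 0 in the Lhx6 comparison (median 0.03) and lie above 0 throughout in the Mtg8 comparison (median 0.49).

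The CDK inhibitors did not pass the test in either direction. Cdkn1a was 59.2, 62.9 and 98.8 in the controls and 49.8, 85.5 and 65.0 in the labelled mutants (log2 difference -0.14 ± 0.35, SE, adjusted p = 0.964). Cdkn1b was 795, 861 and 734 and 944, 664 and 966 (log2 difference 0.09 ± 0.22, SE, adjusted p = 0.962), and Cdkn1c was 221, 302 and 186 and 213, 380.5 and 261 (log2 difference 0.26 ± 0.29, SE, adjusted p = 0.911). The groups overlapped for all 3 genes.

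Further genes of the pathway were counted here too. Of 36 other G2/M genes 25 were above 0 (median 0.19), 8 of them at an unadjusted p under 0.05, and of 30 other S phase genes 21 were above 0 (median 0.09), 3 at an unadjusted p under 0.05 and 1 lower. Over all genes tested 48.5% were above 0, 3.06% higher and 2.44% lower at that p. Summed counts of the 36 overlapped, at 74254 to 86005 in the controls and 68868 to 80268 in the labelled mutants. Their mean log2 levels did not, at -0.027 to 0.047 and 0.21 to 0.31. Tacc3, a spindle protein, had the smallest p of the other G2/M genes, with means of 456 and 800 (log2 difference 0.79 ± 0.21, SE, adjusted p = 0.771, limma). Of 16 other E2F, pocket protein and INK4 genes 9 were above 0 (median 0.11). Mybl2, a MYB factor in this group, had means of 10.4 and 34.4 (log2 difference 1.69 ± 0.46, SE, adjusted p = 0.771, limma). Its control mean lay close to the filter of 10. None of these genes passed the test.

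Marker genes of other cells are given beside these values for the same libraries. Their counts stand against 48.5% of all genes above 0, and 3.06% higher and 2.44% lower at an unadjusted p under 0.05. Among 13 subpallial progenitor markers that passed the filter (of 15), 11 were above 0, with a median of 0.48 and 6 at an unadjusted p under 0.05, and their summed counts were 7715 to 9301 in the controls and 9917 to 14029 in the labelled mutants. Their mean log2 levels relative to the controls were 0.13, 0.65 and 0.79 in labelled mutants 2, 3 and 4 and 0.26 in control 4, so that on this scale the groups overlapped. The remaining 2, Gsx2 and Gsx1, had a mean count under 10. Of 10 interneuron markers 9 were below 0 (median -0.34, 3 at an unadjusted p under 0.05), with sums of 44439 to 45789 in the controls and 31551.5, 27220 and 45635 in labelled mutants 2, 3 and 4. Their mean log2 levels relative to the controls were -0.54, -0.48 and 0.24 in labelled mutants 2, 3 and 4, against -0.027 to 0.041 in the controls, so labelled mutant 4 was near the controls by the sum and above them by the mean log2 level. For the cortical excitatory lineage 11 of 12 genes were above 0 (median 0.49), with sums of 12053 to 20459.8 and 14319.5 to 27811. Oligodendrocyte precursor markers, 4 of 6 of which passed the filter, summed to 6.40 to 311 in the controls and 52.1 to 527 in the labelled mutants. All 4 were above 0 (median 1.86), and control 4 stood above labelled mutants 2 and 3. Of 8 erythroid markers the 6 that passed the filter were all above 0 (median 0.30), with mean log2 levels of 1.501, 0.30 and 1.45 relative to the controls in labelled mutants 2, 3 and 4, against -0.26 to 0.19 in the controls, while their summed counts overlapped, at 10849 to 27180.5 in the controls and 15498 to 31676 in the labelled mutants. Of 9 postmitotic neuron markers 6 were below 0 (median -0.20), with sums of 105747 to 131121 in the controls and 94014.5 to 114766 in the labelled mutants. Their mean log2 levels were 0.026, -0.12 and 0.077 in labelled mutants 2, 3 and 4, against -0.034 to 0.052 in the controls. Microglia and endothelial markers, 6 of each past the filter, had medians of 0.31 and 0.21, and their summed counts overlapped between the groups. No marker gene of these lists had an adjusted p under 0.05, and their part in the G2/M values was not tested.

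Cdkn1c also stood at different levels in the +/+ embryos of the 2 tables. Because the tables were normalized separately, levels were set side by side as RPM, the reads of a gene scaled to a common total of counted reads, as a description with no test, since batch and litter cannot be told apart from table. Cdkn1c stood at 222, 168, 172 and 175 RPM in Lhx6 controls 1 to 4 (184 ± 25.4, SD, n = 4) and at 12.3, 16.1 and 9.66 in Mtg8 controls 1, 2 and 4 (12.7 ± 3.24, SD, n = 3), a ratio of means of 14.5. No Lhx6 library, mutants included, was under 89.7 and no Mtg8 library was over 21.1. Of 15629 genes tested in both tables, 0.422% were as far apart or farther, and the median ratio of all of them was 1.13. Libraries with and without dated names lay on the same side of this gap in each table.

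For the other inhibitors the gap was smaller. Cdkn1a had 10.96 ± 1.54 RPM in the Lhx6 controls (SD, n = 4) and 3.92 ± 1.05 in the Mtg8 controls (SD, n = 3), a ratio of 2.79 (9.22% of all genes were as far apart), and Cdkn1b had 64.5 ± 6.38 and 42.7 ± 4.06, a ratio of 1.51 (40.9% of all genes were as far apart). The libraries of the tables were separate for Cdkn1a and overlapped for Cdkn1b. Of the other members Ccne1 (ratio 4.92) and Cenpa (3.59) were farthest apart, with overlapping libraries. E2f1 (ratio 3.10) and Cenpf (1.96) were the other genes of the 48 with every Lhx6 library above every Mtg8 library, and 2 genes were placed the other way. Over all 15629 genes 13.2% were without overlap, 8.15% with the Lhx6 libraries above, so that 6 of the 48 is near the share of all genes. By the ratio of control means, every G2/M gene but Bub1b (0.75) and Bub1 (0.996) was higher in the Lhx6 controls. These ratios ran from 1.20 for Ccnb1 to 3.59 for Cenpa, with 2.82 for Cdc20, beside a median of 1.13 over all genes. G2/M levels thus differed between the +/+ embryos of the 2 comparisons too, and the cause was not tested. Cdk4 and Pcna were 1.20 and 1.12 times as high in the Lhx6 controls, with overlapping libraries.

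**Figure D5:**
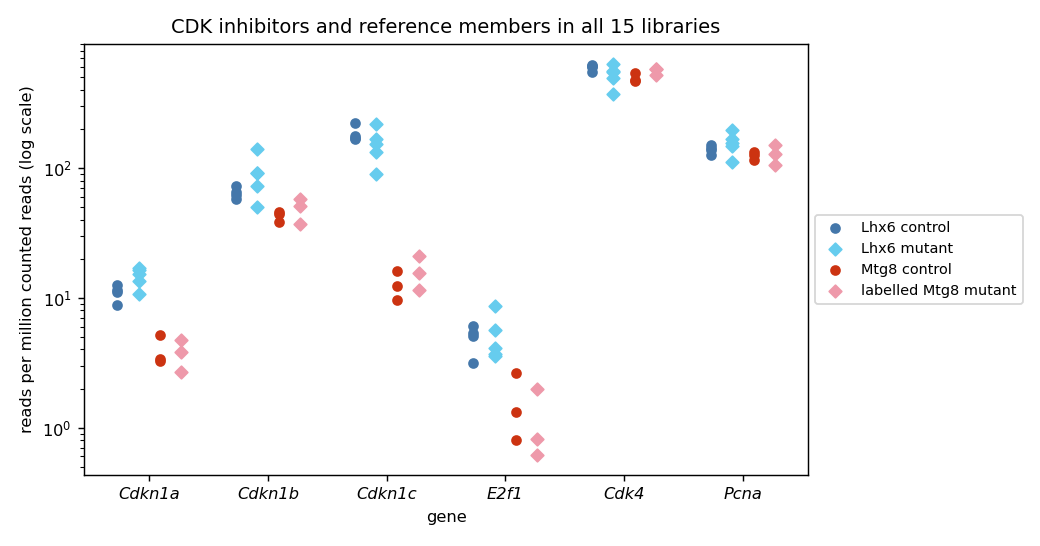
RPM, reads scaled to a common total of counted reads (y axis, log scale), of the 3 CDK inhibitors, E2f1, Cdk4 and Pcna in all 15 libraries, each point 1 library, coloured by group. Cdkn1c lies at 89.7 to 222 in the 9 Lhx6 libraries and at 9.66 to 21.1 in the 6 Mtg8 libraries, while Cdk4 and Pcna overlap.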

How the data were processed

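RNA from FACS-sorted YFP+ cortical cells of single embryos was made into cDNA (NEBNext Single Cell/Low Input) and Nextera XT libraries and sequenced as single 75-base reads on a NextSeq 500. The authors trimmed reads with fastp 0.20.1, mapped them with STAR 2.7b to GRCm38.p6, counted them per gene with featureCounts 1.6.4 (GENCODE annotation), left out sex-linked genes, and deposited 1 table per comparison of gene counts divided by DESeq2 size factors (a normalized signal per gene), 100% of which gave whole reads at a tolerance of 0.01. Their columns of fold changes and p-values were not used. The deposited gene lengths, in bases, gave levels per kb.

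Here the whole of each table was fitted with limma 3.58.1 (R 4.3.3) on log2(normalized count + 1) with a mean-variance trend, keeping genes whose mean normalized count reached 10 (16727 in the Lhx6 table, 16132 in the Mtg8 table), two-sided, with Benjamini-Hochberg adjustment over all genes tested and a threshold of 0.05. All 48 members passed this filter in both tables. Fold changes on this scale understate the change of low genes. Adjusted p-values throughout are from this fit unless another tool is named. The script was tested on simulated data. Reads were recovered for edgeR 4.0.16 and DESeq2 1.42.0, which served as alternatives beside other pseudocounts, filters, scalings and covariates, and leaving out each library. The study's methods call the mutants littermates of controls, and some library names share a stem, but no source says which libraries share a litter or run, so litter was not in the fit and p-values measure the spread between embryos as sampled. Strand was not stated for the counting, so reads of overlapping genes cannot be told apart.

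Values in every library are given for members past the threshold, the most and least abundant and the most changed member of each group, and the usual proliferation and cycle exit markers. Cdk6, Cdc45, Rrm2, Tpx2 and Cenpf (Lhx6) and Kif11, Ube2c, Ccnb2, Cdk2, Plk1 and Ccnd3 (Mtg8) were added after their values were seen. The members and lists were chosen with earlier results of these data known. Promoter windows came from RefSeq (GRCm38.p6).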

Additional observations from a re-analysis of the deposited data

Results flagged for a closer look

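In 104 checks, of the 48 genes and the 4 phase group means within the 4 Lhx6 controls and within the 5 Lhx6 mutants, 6, all of single genes, had a library whose gap to the nearest other exceeded Dixon's 95% critical value, where chance gives about 1 in 20. Among the controls, Ccnd3 was lowest in control 4 (171 normalized counts), Mcm5 lowest in control 2 (389), Mcm6 lowest in control 3 (799), Kif11 lowest in control 3 (389) and Ccnb1 highest in control 4 (1261). Among the mutants, Cenpf was highest in mutant 6 (1553). The groups of 3 in the Mtg8 table were not checked.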

How the results depend on the processing

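In the Lhx6 comparison no member was called under any setting but one: leaving out 1 library at a time gave 0 to 1 members called higher, the 1 being Cdk6 without mutant 3. In the Mtg8 comparison no member was called under any setting run. With library name style as a covariate, which leaves mutant 6 against the 4 controls with the spread borrowed from the other libraries, the phase medians of the Lhx6 comparison were 0.70 for G1, 0.76 for replication, 1.09 for G2/M and 0.18 for the inhibitors, with 0 members called, and against the 2 controls of the same name stem (chosen after seeing the data) they were 0.41, 0.78, 1.08 and 0.18. Leaving out 1 library gave -0.13 to 0.15 for G1, -0.37 to 0.10 for replication, -0.21 to 0.17 for G2/M and 0.25 to 0.49 for the inhibitors. The style covariate turned 22 of the 24 members below 0 to above 0, among them Cdk4 (0.093), Ccne1 (0.12), Cdc6 (0.55), Cdt1 (0.91), Cdc45 (1.65), Mcm2 (0.91), Ccnb1 (1.15), Bub1 (1.24), Kif11 (0.77) and Tpx2 (1.25). By edgeR and DESeq2, which compare means of counts and not of logs, Cdt1 (0.025 and 0.030), Cdc45 (0.25 and 0.25), Ccnb1 (0.16 and 0.16), Bub1 (0.045 and 0.047) and Tpx2 (0.041 and 0.045) were above 0. None of these genes was called in those fits.

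Leaving out 1 library changed the sign of further uncalled genes. In the Lhx6 comparison the ranges were -0.63 to 0.058 for Bub1, -0.29 to 0.27 for Ccnb1, -0.022 to 0.50 for Ccnd1, -0.027 to 0.32 for Ccnd2, -0.70 to 0.30 for Cdc45, -0.085 to 0.31 for Cdk1, -0.39 to 0.15 for Cdt1, -0.13 to 0.18 for E2f1, -0.051 to 0.34 for Hmgb2, -0.0067 to 0.31 for Mki67 and -0.14 to 0.25 for Top2a. In the Mtg8 comparison they were -0.33 to 0.093 for Cdkn1a, -0.0051 to 0.26 for Cdkn1b, -0.16 to 0.035 for Mcm7 and -0.18 to 0.12 for Pcna. Other uncalled genes kept their sign but moved by over 1.5 times. In the Lhx6 comparison these were Cdc6 (-0.76 to -0.0088), Cdk4 (-0.22 to -0.060), Cdkn1b (0.25 to 0.62), Cdkn1c (-0.40 to -0.11), Cenpf (0.079 to 0.41), Kif11 (-0.95 to -0.13), Mcm2 (-0.52 to -0.013), Pcna (0.12 to 0.30), Rrm2 (0.086 to 0.49) and Tpx2 (-0.52 to -0.018). In the Mtg8 comparison they were Ccna2 (0.31 to 0.79), Ccnd3 (0.44 to 1.41), Cdk4 (0.042 to 0.19), Cdkn1c (0.027 to 0.45), Cdt1 (0.25 to 0.67), E2f1 (-1.02 to -0.10) and Mki67 (0.14 to 0.57).

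The Mtg8 G2/M median was 0.46 to 0.54 when 1 library was left out, 0.52 with TMM factors and 0.56 with equal totals. The number of its genes higher at an unadjusted p under 0.05 was 5 without control 1 and 5 without control 2, against 10 with all libraries. The replication median was 0.35 within dated and 0.12 within undated names, and the inhibitor median -0.28 within dated names (all chosen after seeing the data). Equal totals reversed Mcm7 (0.040) and Pcna (0.022), and the style covariate Mcm7 (0.052).

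Same-numbered libraries correlated at -0.15, 0.0017 and 0.072 in the Lhx6 comparison and at 0.14 and 0.16 in the Mtg8 comparison, where they were the highest of 9 pairs. The Lhx6 numbers did not pair the samples, and 2 pairs are too few to show it for Mtg8, of which control 2 and labelled mutant 2 also share a library name stem with control 1. A replicate block gave 0 calls in both, medians of -0.040, -0.28, -0.11 and 0.46 (Lhx6) and 0.34, 0.15, 0.48 and -0.0055 (Mtg8) for G1, replication, G2/M and inhibitors, and reversed Ccnd2 (-0.026), Top2a (-0.050), Cdk1 (-0.047), Mcm7 (0.10) and Cdkn1c (-0.0055). The cause of these shifts was not tested. E2f1, Ccne1 and Cdt1 had the lowest control means of the 48 in both comparisons, so counting error weighs most on them.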
